A study of Drosophila melanogaster with 12 samples.

Results

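Toll and Imd are the main NF-kappaB pathways of insect immunity, and the genes described here are 10 of their core components: the ligand spz, the receptors Tl and PGRP-LC, the adaptors imd and key, the caspase Dredd, the inhibitor cact, and the transcription factors dl, Dif and Rel. Members were taken by current symbol or synonym from the array's annotation. Of the 10 genes, 9 have a probe set assigned to them alone, with 12 probe sets between them, out of 18769 probe sets for 11983 genes in all. PGRP-LC has no such probe set in the annotation used and was not analysed here.

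The cells were Kc167, a Drosophila melanogaster line derived from embryos that resembles blood cells. Every group was grown in Schneider's medium and exposed for 30 min to conditioned medium, which held the JAK/STAT ligand Unpaired (UPD) in 3 groups and was Mock conditioned in the other 3. After the exposure the conditioned medium was exchanged for Schneider's medium, and RNA was collected 2, 4 or 10 h from the start. Each of the 6 groups has 2 biological replicates, 12 Affymetrix arrays in all. The labels do not say whether replicates came from separate passages, so p-values measure the spread between these samples only. This is 1 cell line, and Mock medium, not untreated cells, is the control throughout.

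In the Toll pathway the processed ligand Spätzle, product of spz, binds the receptor Toll. The signal leads to destruction of the inhibitor Cactus, which frees Dorsal (dl) and Dif to enter the nucleus. In the Imd pathway peptidoglycan receptors signal through Imd. The caspase Dredd and an IkappaB kinase complex that includes Kenny (key) then act on Relish (Rel), whose N-terminal part enters the nucleus. Both routes are best known for inducing antimicrobial peptide genes in fat body and blood cells, and the Toll route also patterns the embryo. Much of this signalling runs through protein cleavage, modification and movement, which transcript arrays do not measure.

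Values are the deposited log2 levels per probe set, and a difference of 1 is a 2-fold change. A gene with several probe sets is given by the one with the highest mean. Tests are limma's over all 18769 probe sets, with Benjamini-Hochberg adjustment and a threshold of 0.05, and SE is the standard error of that fit. All 9 measured genes lie above the median of the probe sets' mean levels (1.74). In bulk samples, fewer cells of a type and less RNA per cell cannot be told apart.

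Some features of the arrays touch the results. Among probe sets above the median level, the median replicate SD was 0.083 to 0.195 at 2 and 4 h but 0.445 for UPD and 0.504 for Mock at 10 h. The limma fit pools each probe set's variance over all groups. Its SEs, intervals and p-values therefore do not measure the spread of the groups compared. By these medians that spread was smaller at 2 and 4 h than at 10 h, a difference that the pooled SE does not show. The upper quartile of the levels was 6.88 to 7.56 except after UPD at 10 h, where it was 6.10 and 6.63. The gap between the 3′ and 5′ control probe sets of Act5C, which grows with loss of the 5′ end of the message, was 0.713 to 0.888 at 2 h. At 10 h it was 1.37 and 1.25 after UPD and 1.15 and 1.14 after Mock. Their part in the results was not tested. Of 10 blood cell markers 7 lay above the median level, among them Hml, srp, Pxn and Col4a1. Of the measured markers of other cell types, 5 of 14 did: PPO2, PPO3, Lsp2, elav and bam.

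dl, the founding Drosophila NF-kappaB factor, was the member that stood furthest above Mock. At 2 h it stood at 6.06 and 5.96 on the UPD arrays and at 5.33 and 5.46 on the Mock arrays. At 4 h the levels were 5.95 and 5.70 after UPD and 4.58 and 5.13 after Mock. At 10 h they were 4.74 and 4.06 after UPD and 3.75 and 3.001 after Mock. UPD lay above Mock on every array at all 3 times, a pattern that 0.416% of all probe sets and 0.501% of those above the median level share.

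The difference of dl was 0.62 ± 0.40 (SE) on the log2 scale at 2 h, 0.97 ± 0.40 at 4 h and 1.03 ± 0.40 at 10 h, or 1.54-fold, 1.96-fold and 2.04-fold. None of these passed, with adjusted p-values in limma of 1.00, 1.00 and 0.243. The SE is pooled over all groups and so is the same at each time. The replicate SDs of dl after UPD and Mock were 0.069 and 0.091 at 2 h, and 0.17 and 0.39 at 4 h. At 10 h they were 0.48 and 0.53. Averaged over the times the difference was 0.87 ± 0.23 (95% interval 0.33 to 1.41), with an unadjusted p of 0.00604 and an adjusted p of 0.312 in limma. The unadjusted p was under 0.05 for 10.8% of all probe sets in that average. Over the alternatives run the difference of dl was 0.56 to 0.81 at 2 h, 0.69 to 1.25 at 4 h and 0.38 to 1.80 at 10 h. Since UPD lay above Mock on every array, its sign could turn only with rescaling or the mean of both probe sets. It did not turn under these. The highest value at 10 h came with quantile normalization (adjusted p = 0.0673) and the lowest with the mean of both dl probe sets. The dimmer dl probe set differed by 0.99 ± 0.83 at 2 h, 1.01 ± 0.83 at 4 h and −0.26 ± 0.83 at 10 h, where its groups overlapped.

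Dif, the NF-kappaB factor that acts with dl downstream of Toll in immunity, lies close to dl on chromosome arm 2L, with 3 annotated genes starting between them. After UPD its levels were 5.93 and 5.91 (2 h), then 5.93 and 6.12 (4 h), then 5.42 and 5.73 (10 h). After Mock they were 5.96 and 5.73, then 5.46 and 5.80, then 5.64 and 4.59. The groups did not overlap at 4 h, where UPD was higher, and overlapped at 2 and 10 h. The differences were 0.08 ± 0.40, 0.39 ± 0.40 and 0.46 ± 0.40 (SE), and none passed (adjusted p = 1.00, 1.00 and 0.644 in limma). The low Mock replicate 2 at 10 h decides the last value: without that array it was −0.07.

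**Figure D1:**
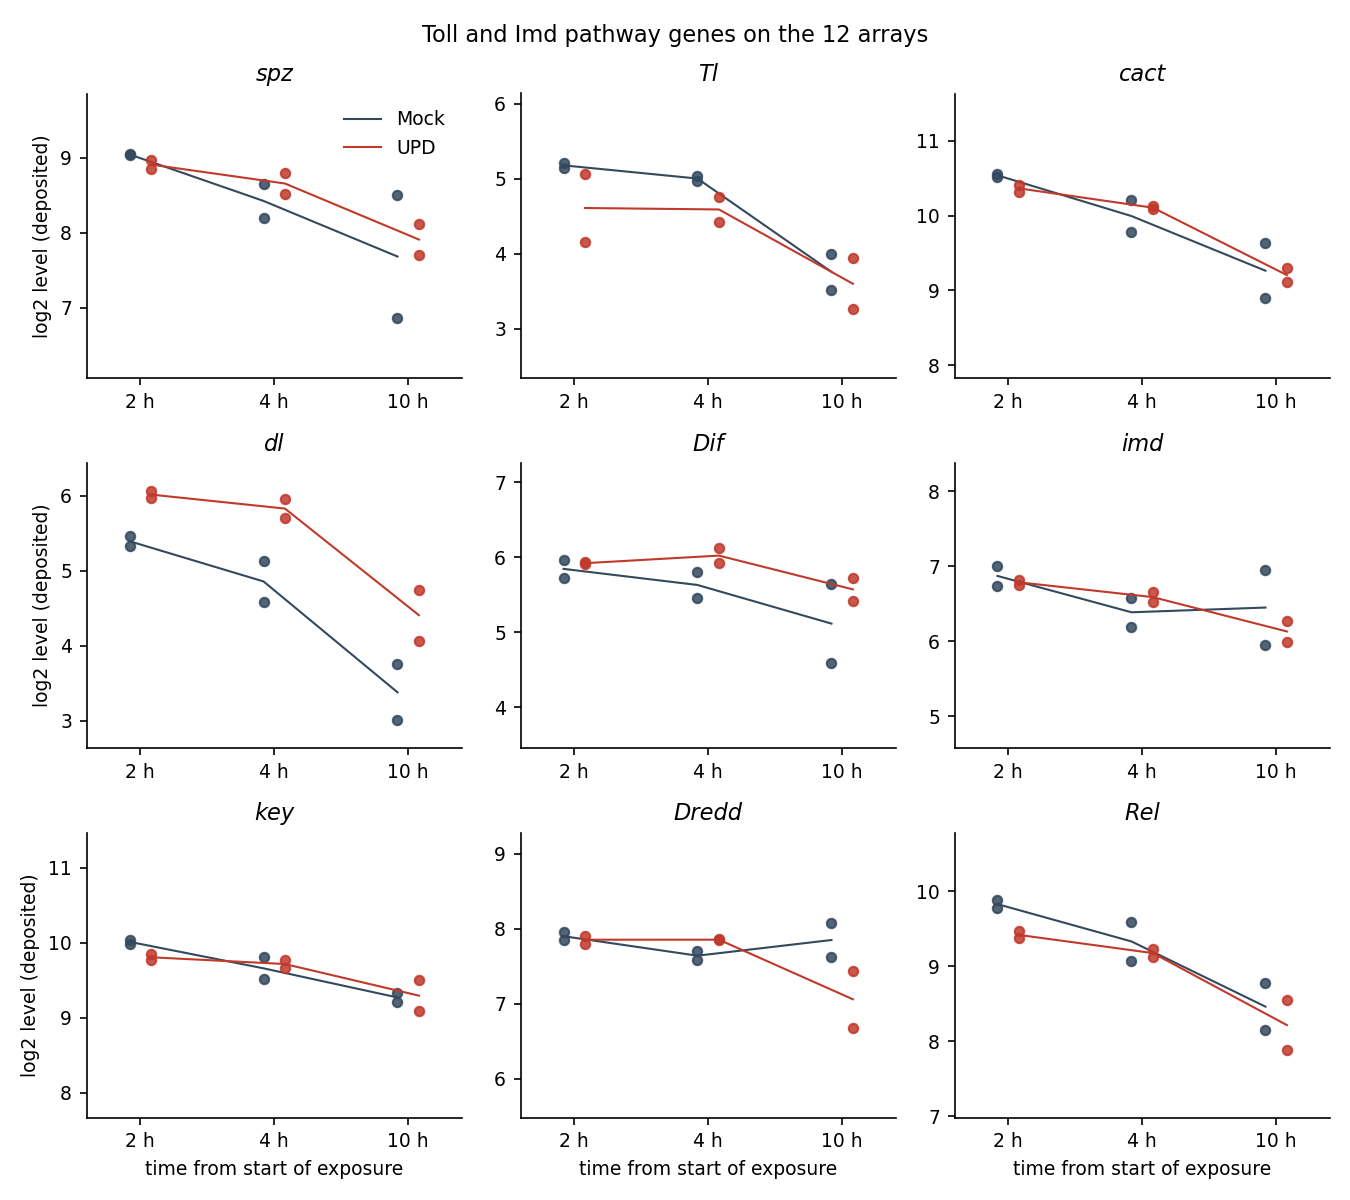
Deposited log2 levels (y axis, each panel spanning the same number of log2 units) of the 9 measured genes by time (x axis, categories); points are arrays, 2 per group, and lines join group means. dl is above Mock on every array at each time, and in both media the means of all 9 genes are lower at 10 h than at 2 h, by the least for Dredd in Mock (−0.05).

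Rel, the Imd pathway's factor, stood the other way at 2 h. Its levels there were 9.47 and 9.37 after UPD and 9.78 and 9.88 after Mock. At 4 h they were 9.23 and 9.12 after UPD and 9.07 and 9.59 after Mock. At 10 h they were 7.88 and 8.55 after UPD and 8.15 and 8.78 after Mock. The groups did not overlap at 2 h, when UPD was lower, and overlapped later.

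The difference of Rel was −0.41 ± 0.38 (SE) at 2 h, −0.16 ± 0.38 at 4 h and −0.25 ± 0.38 at 10 h, with adjusted p-values of 1.00, 1.00 and 0.818 in limma. At 2 h, UPD below Mock without overlap is common: 44.3% of probe sets above the median level show it, whose median difference was −0.11. Averaged over the times Rel differed by −0.27, with a 95% interval of −0.78 to 0.24. The sign at 4 h turned to 0.10 without Mock 4 h replicate 2.

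Tl encodes the receptor itself. Its levels were 4.15 and 5.07 after UPD and 5.14 and 5.22 after Mock at 2 h. At 4 h they were 4.76 and 4.42 against 4.97 and 5.03, and at 10 h 3.94 and 3.26 against 3.52 and 4.00. UPD was below Mock on every array at 2 and 4 h, and the groups overlapped at 10 h. The differences of −0.57 ± 0.42 (SE), −0.41 ± 0.42 and −0.16 ± 0.42 did not pass (adjusted p = 1.00, 1.00 and 0.907 in limma). The difference at 2 h was −0.11 without UPD 2 h replicate 1. The other Tl probe set lies below the median level and ran from −2.92 to 3.17 over the 12 arrays, so the receptor's values rest on 1 probe set.

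Dredd, the caspase of the Imd pathway, was higher than Mock on both UPD arrays at 4 h and lower on both at 10 h. At 2 h it stood at 7.91 and 7.80 after UPD and 7.95 and 7.85 after Mock. At 4 h it stood at 7.86 and 7.85 after UPD against 7.58 and 7.70. At 10 h it stood at 6.68 and 7.44 against 8.07 and 7.63.

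The difference of Dredd was −0.05 ± 0.35 (SE) at 2 h, 0.21 ± 0.35 at 4 h and −0.79 ± 0.35 at 10 h, and the last had an adjusted p of 0.3 in limma. That value was −0.22 with quantile normalization and ran from −1.17 to −0.41 on leaving out 1 array. Among probe sets above the median level 36.8% lay below Mock without overlap at 10 h, and their median difference was −0.41. Relative to that median, Dredd differed by −0.38, little more than its SE. Whether the response to UPD changed with time was tested with limma's F test, in which Dredd had the lowest p of the 9 genes (0.17, adjusted 0.739). Neither these 9 nor any other probe set passed that test, and 8.9% of all probe sets had an unadjusted p under 0.05 in it.

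For the remaining 4 members no difference between media exceeded its SE. spz ran from 6.86 to 9.05 over the 12 arrays and differed from Mock by −0.14 ± 0.52 (SE), 0.23 ± 0.52 and 0.23 ± 0.52 at 2, 4 and 10 h. cact, whose product holds dl and Dif in the cytoplasm, ran from 8.90 to 10.56 and differed by −0.17 ± 0.34, 0.11 ± 0.34 and −0.06 ± 0.34. key ran from 9.09 to 10.04 and differed by −0.21 ± 0.29, 0.06 ± 0.29 and 0.02 ± 0.29. imd, the adaptor that names its pathway, ran from 5.94 to 7.004 and differed by −0.08 ± 0.39, 0.20 ± 0.39 and −0.32 ± 0.39. The 95% intervals of these genes hold 0 at each time, and intervals this wide do not show equal levels.

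At 2 h, 0 of the 9 genes passed in limma and 0 had an unadjusted p under 0.05, against 0.00533% and 4.42% of all probe sets (0.98% unadjusted above the median level). At 4 h the counts were 0 and 1, against 0% and 4.03% (1.62%), and at 10 h 0 and 1, against 1.06% and 17.2% (26%); dl was the 1 gene both times. The median difference of the 9 genes was −0.14 at 2 h, 0.20 at 4 h and −0.06 at 10 h. Over all probe sets above the median level it was −0.11, 0.02 and −0.41. At 2 h, UPD was lower without overlap for 5 genes and higher for 1, against 44.3% and 6.79% of probe sets above the median level. At 4 h it was lower for 1 and higher for 3, against 15.9% and 17.9%, and at 10 h lower for 1 and higher for 1, against 36.8% and 6.29%. At 10 h, 8 of the 9 lay above the median of all probe sets above the median level, by up to 1.44 for dl, and Dredd lay below it. That set was not matched to the members' levels.

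**Figure D2:**
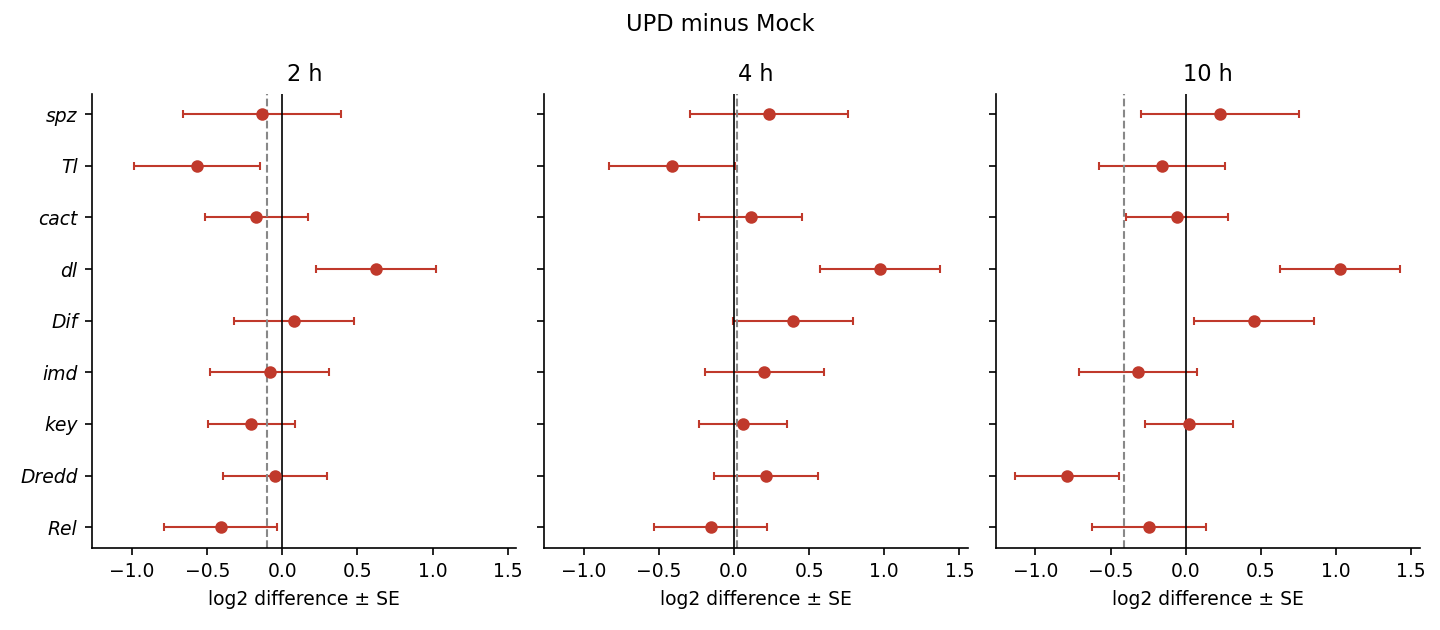
UPD minus Mock on the log2 scale (x axis) for the 9 genes at 2, 4 and 10 h; points are differences, bars are ± SE from limma, and the dashed line is the median of all probe sets above the median level. dl lies to the right of both lines at each time, and Dredd is the lowest at 10 h with −0.79.

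Levels also differed with time in both media. From 2 to 10 h every one of the 9 differences was below 0, in Mock from −2.02 to −0.05 and in UPD from −1.61 to −0.35, as for 84.5% and 83.9% of probe sets above the median level. Groups did not overlap for 7 of 9 genes in Mock and for 9 of 9 in UPD. Among probe sets above the median level, 49.3% lay lower without overlap at 10 h in Mock and 66.9% in UPD. The median difference was −1.27 over the members and −0.41 over those probe sets in Mock. In UPD it was −1.0003 against −0.80.

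dl passed from 2 to 10 h after UPD, where it fell by 1.61 ± 0.40 (SE; 3.05-fold lower, adjusted p = 0.0481 in limma). It was 1 of 9 genes past the threshold in that comparison, against 9.46% of all probe sets (8.46% lower) and 16.6%, called lower, of those above the median level. With no adjustment 4 of 9 had a p under 0.05, against 26.9% of all probe sets and 42.2% of those above the median level. The call held without either Mock array of 10 h (adjusted p = 0.029 in limma) and was lost without any 1 of the other 10 arrays (0.0727 to 0.211). It was also lost with only the arrays compared (0.258), with array weights (0.111) and with quantile normalization, which gave −0.38 (0.688). In Mock the difference of dl was −2.02 ± 0.40, at a smaller unadjusted p (0.00122) but an adjusted p of 0.201 in limma, and 0 probe sets passed in Mock. There 6 of 9 genes had an unadjusted p under 0.05 in limma, against 14.4% of all probe sets and 18.2% of those above the median level.

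After UPD the inhibitor cact went from 10.41 and 10.32 at 2 h to 9.12 and 9.30 at 10 h. After Mock it went from 10.56 and 10.52 to 8.90 and 9.63. The difference from 2 to 10 h was −1.16 ± 0.34 (SE) in UPD and −1.27 ± 0.34 in Mock, with adjusted p-values of 0.0754 and 0.274 in limma. The arrays at 2 and 10 h did not overlap in either medium, and UPD and Mock overlapped at 10 h. The other cact probe set gave −1.24 ± 0.39 and −2.20 ± 0.39.

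Between 2 and 10 h Rel differed by −1.20 ± 0.38 (SE) in UPD and −1.37 ± 0.38 in Mock, with adjusted p-values of 0.088 and 0.274 in limma. Tl differed by −1.01 ± 0.42 and −1.42 ± 0.42, and spz by −1.0003 ± 0.52 and −1.36 ± 0.52. For spz the replicates of Mock at 10 h lay far apart, at 6.86 and 8.50, and its SE is the largest of the 9 genes. A fit of only the 9384 probe sets above the median level put cact and Rel past the threshold after UPD (adjusted p = 0.0126 and 0.0176 in limma). That fit changes limma's shared estimate of the spread as well as the number of probe sets adjusted over. Quantile normalization, which removes the shared shift, left cact at −0.62 and −0.96 and Rel at −0.51 and −0.97 in UPD and Mock. It left Tl at −0.20 and −0.71 and spz at −0.22 and −0.89.

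Smaller differences with time were measured for Dif and the Imd pathway's imd, key and Dredd. key differed by −0.51 ± 0.29 after UPD and −0.74 ± 0.29 after Mock, imd by −0.66 ± 0.39 and −0.42 ± 0.39, and Dif by −0.35 ± 0.40 and −0.73 ± 0.40. Dredd differed by −0.79 ± 0.35 after UPD and −0.05 ± 0.35 after Mock. None of these 4 passed. With quantile normalization imd, Dif and Dredd were above their 2 h level at 10 h in both media, by 0.03 to 0.84, so their direction with time depends on the scaling. From 2 to 4 h the differences ran from −0.62 to −0.18 in Mock and from −0.26 to 0.10 in UPD. In Mock 0 of 9 genes passed in limma and 0 had an unadjusted p under 0.05, against 0% and 4.95% of all probe sets; in UPD it was 0 and 0 against 0.0107% and 5.7%. Lower without overlap were 8 genes in Mock and 5 in UPD, against 67.8% and 60.7% of probe sets above the median level.

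**Figure D3:**
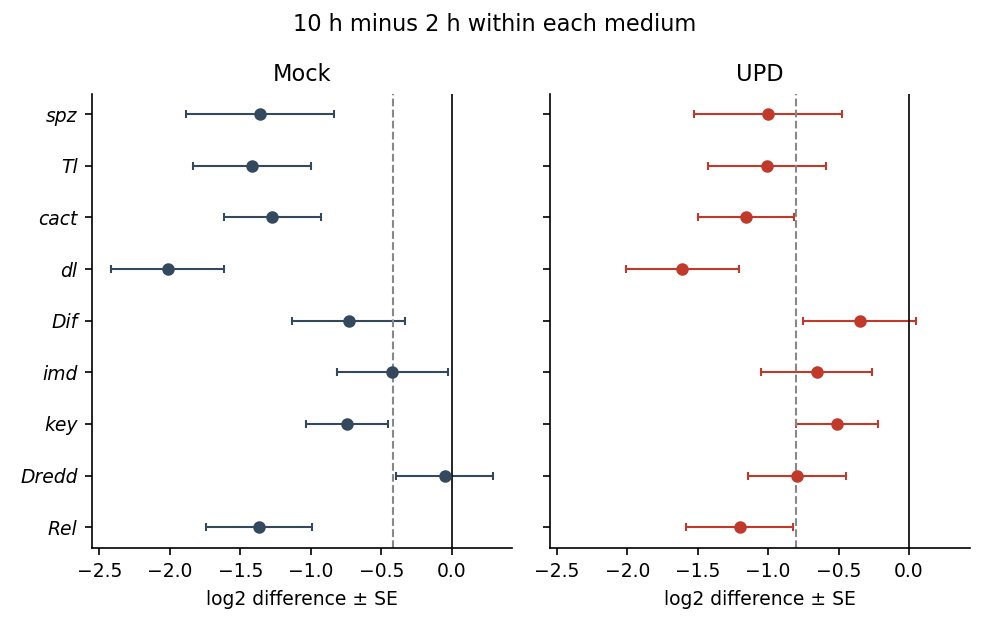
Difference between 10 h and 2 h on the log2 scale (x axis) within Mock (left) and UPD (right); points are differences, bars are ± SE from limma, and the dashed line is the median of all probe sets above the median level. In Mock, 8 of 9 genes lie below that median, which is −0.41, and in UPD 5 of 9 lie below theirs, which is −0.80.

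The rest of the pathways was read from lists of further components. Of 22 other Toll pathway genes 17 were measured, and of 25 other Imd pathway genes 21. From the first list tub, which links the activated receptor to the kinase Pelle, cactin, grass and Pli were named for their strong signal, which is not compared between genes; tub stood at 9.59 after UPD and 9.82 after Mock at 2 h. From the second list these were the ubiquitin-conjugating enzyme genes Uev1A and ben, akirin and Sting; Uev1A stood at 10.69 and 10.71. At 2 and 4 h 0 genes of either list passed against Mock in limma. At an unadjusted p under 0.05 there were 0 Toll genes and 1 Imd gene, PGRP-SB1, at each time. Of all probe sets 4.42% had such a p at 2 h and 4.03% at 4 h.

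At 10 h, 1 Imd pathway gene passed against Mock. scny, which encodes a deubiquitinating enzyme, stood at 6.38 and 6.45 on the UPD arrays and 8.52 and 8.27 on the Mock arrays. It fell by 1.98 ± 0.27 (SE) on the log2 scale (adjusted p = 0.0331 in limma), and 6 of 19 alternatives kept that call. It was 1 of 21 genes, against 1.06% of all probe sets. An unadjusted p under 0.05 in limma was found for 6 of 17 other Toll and 7 of 21 other Imd genes. The share was 17.2% of all probe sets and 26% of those above the median level. The lists' medians at 10 h were −0.56 for the other Toll genes, 13 of 17 lower, and −0.01 for the other Imd genes, 11 of 21 lower, against −0.06 for the 9 members. Among probe sets above the median level 71.5% were lower, with a median of −0.41. In these lists 11 of the 17 Toll genes and 19 of the 21 Imd genes lie above the median level.

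pirk, an induced inhibitor of the Imd pathway, was higher after UPD on every array at each time, as dl was. This pattern is shared by 0.416% of all probe sets and 0.501% of those above the median level, a rate that random order of the arrays would also give. These values of pirk were chosen after they were seen, from the 21 other Imd genes measured. pirk stood at 9.09 and 9.32 after UPD and 8.21 and 8.31 after Mock at 2 h. At 4 h it stood at 8.59 and 8.22 against 7.80 and 8.17, and at 10 h at 6.99 and 7.98 against 6.51 and 5.88. The differences of 0.94 ± 0.42 (SE), 0.42 ± 0.42 and 1.29 ± 0.42 did not pass (adjusted p = 1.00, 1.00 and 0.171 in limma). At 2 h pirk passed in 1 of 21 alternatives (adjusted p = 0.0419 in limma), and at 4 h in 0 of 21. At 10 h pirk passed in 3 of 19 alternatives, among them quantile normalization, which gave 1.72 with an adjusted p of 0.0228.

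From 2 to 10 h after UPD, a comparison that shares its 10 h arrays with the one against Mock, 3 of 17 other Toll genes and 5 of 21 other Imd genes passed, all lower. Of all probe sets 8.46% were called lower, and 16.6% of those above the median level. The adaptor gene Myd88 fell by 1.53 ± 0.30 (SE), cactin by 1.66 ± 0.33 and Deaf1, a transcription factor gene, by 2.20 ± 0.36. In the Imd list scny fell by 2.43 ± 0.27, trbd, another deubiquitinating enzyme gene, by 1.88 ± 0.42, the recognition protein gene PGRP-LA by 1.85 ± 0.40, pirk by 1.72 ± 0.42 and Tab2, a partner of the kinase Tak1, by 1.30 ± 0.31. Adjusted p-values in limma ran from 0.0122 for scny to 0.0474 for pirk. scny kept its call in 15 of 19 alternatives and the other 7 in 5 to 9. With quantile normalization scny and cactin passed. In Mock 0 genes of either list passed (limma). There 4 of 17 Toll and 9 of 21 Imd genes had an unadjusted p under 0.05 in limma. The share was 14.4% of all probe sets and 18.2% of those above the median level.

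Of 10 blood cell markers measured, 7 of them above the median level, 9 were lower than Mock at 10 h. The share was 56.5% of all probe sets and 71.5% of those above the median level. Pxn and Col4a1 passed, against 1.06% of all probe sets. These calls were kept in 5 and 6 of 19 alternatives. From 2 to 10 h after UPD, 9 of the 10 were lower, against 58.6% of all probe sets and 83.9% of those above the median level. There 4 passed (srp, Pxn, ush and Col4a1), against 8.46% and 16.6% called lower. These 4 passed in 6 to 10 of 19 alternatives each. Of 3 neuron markers measured, elav was the 1 that was lower in that comparison. It passed there, with a fall of 2.78 ± 0.36 (SE) on the log2 scale (adjusted p = 0.013 in limma). The other 2 were higher and lie below the median level. The mean level of the 10 markers after UPD was 5.83 and 6.01 early (2 h) and 4.19 and 4.74 late (10 h). After Mock it was 5.97 and 5.93 early and 5.08 and 5.91 late. That of the 9 members was 7.72 and 7.76 early and 6.73 and 6.91 late in UPD. In Mock the members' mean was 7.87 and 7.82 early and 6.78 and 6.82 late. The markers' part in the differences of the pathway genes was not tested. Above the median level, long genes lay further below Mock at 10 h than short ones: with genes cut into 3 equal classes by genomic length in RefSeq Release 6, the median difference was −0.80 in the longest class and −0.11 in the shortest. In the longest class are 5 members, which differed at 10 h by −0.16 (Tl, 43363 bases), 0.46 (Dif, 19914), 1.03 (dl, 13535), −0.06 (cact, 13172) and 0.23 (spz, 5081).

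**Figure D4:**
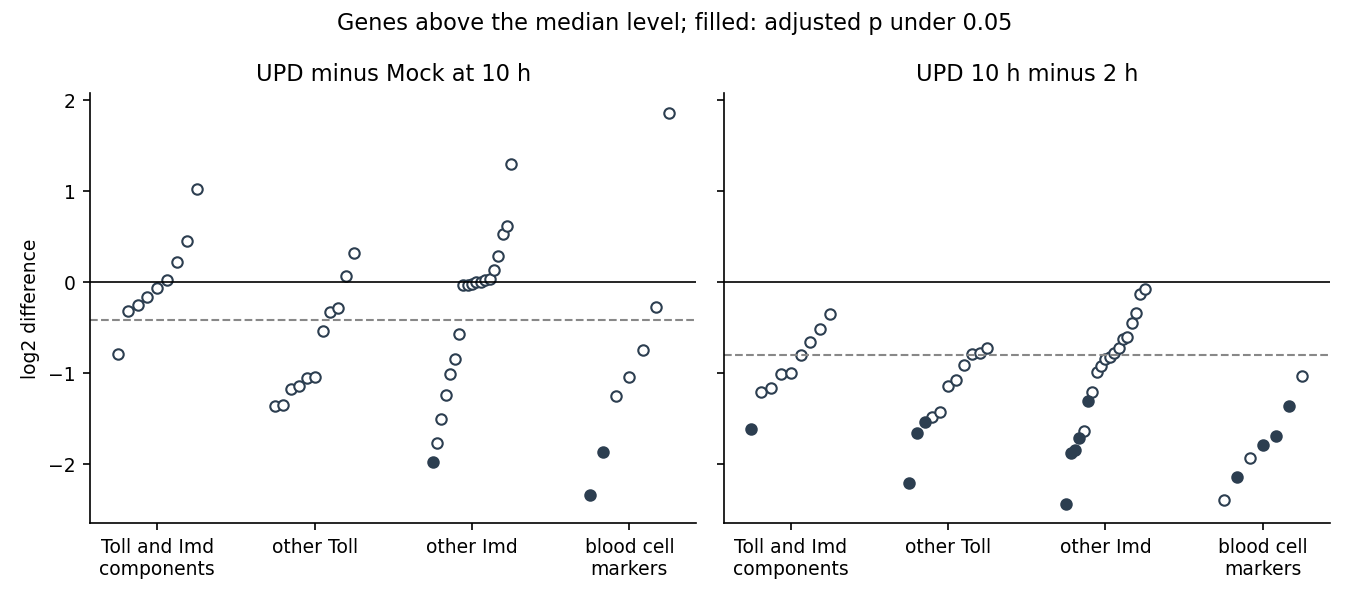
Log2 differences (y axis) of genes above the median level in 4 lists (x axis), for UPD minus Mock at 10 h (left) and UPD 10 h minus 2 h (right); each point is a gene, filled where the adjusted p is under 0.05, and the dashed line is the median of all probe sets above the median level. On the left dl is the highest of the 9 components at 1.03, and scny is the filled point of the Imd list.

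The antimicrobial peptide genes that these pathways induce were measured by 6 of 14 listed genes. At 4 h 4 of the 6 were lower on both UPD arrays, as 15.9% of probe sets above the median level were. Of the 6, 3 had an unadjusted p under 0.05 in limma, against 4.03% of all probe sets. Among the 4 lower genes, CecB stood at 4.88 after UPD and 6.90 after Mock, Mtk at 2.26 and 4.93 and AttD at 8.04 and 9.28. These 3 genes were chosen after their values were seen. At 10 h 4 of the 6 were higher than Mock (median 0.57), namely CecB, Mtk, Drs and Def. The largest difference (1.39) was that of Def, a dim probe set below the median level. For Drs and Mtk, Mock replicate 2 was low at 10 h, at 2.67 and 2.10 against 4.31 and 3.47 in replicate 1. Of all probe sets 56.5% were lower at 10 h, and 71.5% of those above the median level. The differences were 0.38 for CecB, 0.86 for Mtk and −0.84 for AttD. None of the 6 passed in limma at 2, 4 or 10 h. Of the Toll family receptors and Spätzle family ligands 10 of 12 were measured. Tollo, spz4, 18w and Toll-4 were named for their signal, of which the first 2 lie above the median level, and none of the 10 passed in limma against Mock or between times.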

How the data were processed

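The 12 arrays were assigned to medium, time and replicate from their titles. The deposited values are 1 log2 level per probe set and array; the base was inferred from their range, with summarisation and normalization not given in the sources used here. Within each medium all arrays share one median, 2.33 for UPD and 2.38 for Mock. Of 18952 probe sets 183 controls were left out. Gene symbols are those of the platform annotation in GEO, brought up to date by gene ID with RefSeq Release 6: 13647 probe sets have 1 gene (13544 matched by gene ID), 402 several and 4720 none.

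A model with 6 group means was fitted with limma 3.58.1 in R 4.3.3 to all 12 arrays, with 6 residual degrees of freedom (prior 1.54), and two-sided p-values were adjusted over all 18769 probe sets of a contrast. The fit was tested on simulated data. All members were named, with list genes that passed and the 4 brightest of each pathway list. CecB, Mtk, AttD, Drs, Def, PGRP-SB1 and the marker genes were chosen after their values were seen, as were pirk's values against Mock. Members and lists were chosen with earlier results of these data known. The alternatives were quantile normalization, one median for all arrays, a filter at the median level (9384 probe sets), trended robust variance, only the compared arrays, a replicate block, each array left out, and the mean over a gene's probe sets. Fits of the 8 arrays of 2 and 4 h and array weights were added after seeing the data. The number of arrays limits the precision. No sequences were used.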

Additional observations from a re-analysis of the deposited data

How the results depend on the processing

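All 72 differences of the 9 genes were recomputed under the alternatives, 1455 values in all. Of these, 1366 kept their direction and their side of the threshold. A turn of sign came in 64 (31 of them on leaving out 1 array), while 14 lost a call and 11 gained one. Many values could not turn. The filter, the trend, the compared arrays, the block and leaving out an array of another group keep the difference itself unchanged. Where no cause is named, the cause was not tested. Quantile normalization removes the shared shift at 10 h (the median of probe sets above the median level went from −0.41 to −0.01 for UPD minus Mock and from −0.80 to −0.03 for UPD 10 h minus 2 h). Under it the members' medians became −0.060 at 2 h, 0.29 at 10 h (from −0.06, a turn of sign), −0.71 for Mock from 2 to 10 h and −0.20 for UPD from 2 to 10 h.

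Quantile normalization turned these UPD minus Mock values: imd 0.067 and Dredd 0.075 at 2 h; cact −0.0086 and key −0.037 at 4 h; Tl 0.20, cact 0.23, Rel 0.12 and imd 0.33 at 10 h; cact 0.039, imd 0.21, key 0.035 and Dredd 0.027 on average. It also turned Tl 0.19, Dif 0.14 and Dredd 0.068 in Mock from 2 to 4 h, Dif 0.034, imd 0.18 and Dredd 0.44 in Mock from 2 to 10 h, Tl 0.15, dl 0.012 and key 0.11 in UPD from 2 to 4 h, and Dif 0.84, imd 0.45, key 0.042 and Dredd 0.14 in UPD from 2 to 10 h. One median for all arrays turned Dredd at 2 h (0.0013) and the averages of cact (0.0095) and key (0.0084). The mean over a gene's probe sets turned Tl at 2 h (0.31), at 10 h (1.15), on average (0.063) and in Mock from 2 to 4 h (0.31), and cact at 10 h (0.15).

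The number of probe sets called also moved. At 2 h it was 1 as reported, 4 with the variance trend, 0 with only the compared arrays, 0 with the replicate block, 4 in the filtered fit of 8 arrays and 260 with array weights. At 4 h it was 0, then 6 with the trend and 15 in the filtered fit of 8 arrays. At 10 h it was 199, then 578 with quantile normalization, 111 with one median, 1804 with the filter, 1899 with the trend, 0 with only the compared arrays, 1 with the block and 0 with array weights. For the average it was 0, then 27, 3, 152 and 351 with quantile normalization, one median, filter and trend. For the difference between times it was 0, then 4, 88 and 299 with quantile normalization, filter and trend. In Mock it was 0 from 2 to 4 h (1 in the filtered fit of 8 arrays) and 0 from 2 to 10 h (43 with the filter, 845 with the trend). In UPD it was 2 from 2 to 4 h (1 with the filter, 0 with the trend, the compared arrays, the block or the 8 arrays, 140 with array weights) and 1776 from 2 to 10 h (471 with quantile normalization, 3830 with the filter, 4020 with the trend, 0 with the compared arrays, 723 with the block, 1 with array weights).

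Leaving out each array in turn gave 0 to 1 calls at 2 h, 0 to 468 at 10 h, 0 to 7 on average, 0 to 1 for the difference between times, 0 to 84 in Mock from 2 to 10 h, 0 to 1 in UPD from 2 to 4 h and 1 to 2902 from 2 to 10 h. The members' median then ran from 0.0081 to 0.33 at 4 h, from −0.40 to 0.09 at 10 h and from −1.64 to −0.93 in Mock from 2 to 10 h. UPD minus Mock changed sign for Dif at 2 h (−0.041 to 0.19) and 10 h (−0.068 to 0.98), Dredd at 2 h (−0.10 to 0.0062), imd at 2 h (−0.22 to 0.049), 10 h (−0.82 to 0.19) and on average (−0.24 to 0.10), Rel at 4 h (−0.42 to 0.10) and 10 h (−0.58 to 0.091), Tl at 10 h (−0.50 to 0.18), cact at 4 h (−0.10 to 0.33), 10 h (−0.42 to 0.31) and on average (−0.16 to 0.081), key at 4 h (−0.088 to 0.20), 10 h (−0.18 to 0.23) and on average (−0.11 to 0.027), and spz at 10 h (−0.59 to 1.05) and on average (−0.17 to 0.38). Over time it did so for Dredd (−0.27 to 0.17) and imd (−0.93 to 0.083) in Mock from 2 to 10 h and for Dredd (−0.052 to 0.053) and Tl (−0.48 to 0.44) in UPD from 2 to 4 h.

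Samples share only a replicate number: over 15 pairs of groups the same-numbered deviations correlated from −0.085 to 0.205, 1 of them over 0.1. With the number as a replicate block dl in UPD from 2 to 10 h had an adjusted p of 0.0754, and Myd88, cactin, Tab2, pirk, PGRP-LA and trbd (0.0536 to 0.0782) and, against Mock at 10 h, scny (0.0865), Pxn (0.106) and Col4a1 (0.0937) also lost their calls, as did srp (0.0543) and Pxn (0.072) in UPD from 2 to 10 h. With 2 arrays a group, and the spread between replicates largest at 10 h, differences of the size of a member's SE could not be resolved.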

Other observations

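Over the 12 arrays the levels of the 9 genes correlated positively in all 36 pairs, with Pearson r from 0.21 (spz and imd) to 0.97 (Rel and key) and a median of 0.60. cact and Rel, the inhibitor of one pathway and the factor of the other, had r = 0.96. dl correlated best with its neighbour Dif (0.81). The points share the arrays, their scaling and the time course, whose part was not tested. High values are common: for Rel 826 of 7847 other single-gene probe sets above the median level exceed 0.9, for cact 678 of 7846, for Tl 5 and for dl 8.

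By that measure the gene most like dl was CG6231 (r = 0.95), most like Dif CG44251 (0.95) and most like Tl CG17977 (0.94). Closest to cact was CG7744 (0.99), to spz emb (0.99), to Rel Golgin97 (0.99), to imd E(z) (0.97) and to Dredd CG3505 (0.98). The gene closest to key, which encodes a subunit of the IkappaB kinase complex, was casp (0.99), the gene of another regulator of the Imd pathway. CG5704 and Exo70 came next to key, also at 0.99, and 633 of 7847 candidates exceed 0.9 with it.

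PGRP-SB1, a peptidoglycan recognition protein gene, is a dim probe set that stood below Mock early, at −1.61 and −0.82 after UPD and 1.66 and 2.81 after Mock at 2 h. At 4 h the values were −2.39 and −3.52 against 1.07 and 1.60, and at 10 h the groups overlapped. The averaged difference of −2.37 ± 0.50 (SE) had an adjusted p of 0.26 in limma.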
